A study of Mus musculus with 9 samples.

Results

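The transcripts of 10 genes of the BCL2 family, which set the threshold for cell death through mitochondria, were followed in mouse embryonic stem cells (ESCs) that carried different numbers of extra Myc copies. The genes were taken by symbol and grouped by role. Bcl2, Bcl2l1 and Mcl1 encode pro-survival proteins, Bax and Bak1 encode effectors, and Bcl2l11, Bid, Bbc3, Pmaip1 and Bik encode BH3-only proteins. They are 10 of the 35771 gene rows measured, and all 10 passed the filter on low counts that left 13424 genes for testing. The choice of genes used no measured value of a comparison, but it was made with earlier results of these data known.

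All cells were homozygous for iMOS T1-Myc, an induced-mosaic allele that yields cells with extra copies of Myc marked by the yellow fluorescent protein EYFP, and carried RERT, a tamoxifen-dependent Cre recombinase, on a mixed background. They were grown on gelatin with LIF, a cytokine that maintains the ESC state. Induced mosaic cultures were exposed to 20 µM 4-hydroxytamoxifen for 24 h and sorted on EYFP brightness 24 h after the drug was withdrawn, into cells with 2 extra Myc copies (2-extra cells, 3 libraries) and cells labelled as without an extra copy (no-extra cells, a name that follows the label, 3 libraries). The third group, 3 libraries of uninduced cells of the same line, was also sorted. The sample labels repeat the drug exposure for the uninduced cells, and their titles and the design text were followed for the grouping. Cells with 1 extra copy arise in the same mosaics and were not analysed here. The promoter behind the extra Myc copies, and whether the line is 1 clone, are not stated in the labels. The design text calls the 3 samples of a group biological replicas. Nothing ties them to separate cultures, so p-values measure the spread between these libraries, which may be technical.

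In this pathway, pro-survival proteins bind and hold in check the effectors BAX and BAK, which otherwise assemble into pores in the outer mitochondrial membrane and release cytochrome c. BH3-only proteins respond to stress signals and either occupy the pro-survival proteins or engage the effectors directly. Myc is known both to drive growth and to sensitise cells to apoptosis, and in early mouse embryos cells with less Myc than their neighbours are eliminated by cell competition. Much of the family's control is exerted on protein stability, location and cleavage, which RNA sequencing does not measure.

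The promoter windows of RefSeq (mouse build GRCm38.p6), which run from 250 bases before to 50 bases after each annotated start, were searched for the E-box CACGTG, the hexamer bound by MYC with its partner MAX. The hexamer is its own reverse complement, so 1 search covers both strands. Of the 10 members, 8 had an entry in the table, all but Pmaip1 and Bik. The hexamer was found in windows of 2 of the 8, Bax and Bbc3, against 2187 of all 27025 genes in the table (8.09%) and 2349 of 32851 windows (7.15%). The Bax window held 2 copies, with first bases at -9 and +36 from the start, and 1 of 3 Bbc3 windows held a copy at -64. The 250 bases before the start are printed below in the sense of each gene, 5′ to 3′, with CACGTG in capitals. They were chosen because Bax and Bid were the members with an entry that were called in the comparisons below, and because Bbc3 was the other member with the hexamer. The last bases of the Bid stretch lie in the first exon of a GENCODE transcript. The Bbc3 stretch lies inside the GENCODE gene, which begins at chr7:16308393, so its hexamer precedes an internal start. A match in these letters is a description of the window and not evidence of binding.
Bax, chr7:45466899-45467148, minus strand: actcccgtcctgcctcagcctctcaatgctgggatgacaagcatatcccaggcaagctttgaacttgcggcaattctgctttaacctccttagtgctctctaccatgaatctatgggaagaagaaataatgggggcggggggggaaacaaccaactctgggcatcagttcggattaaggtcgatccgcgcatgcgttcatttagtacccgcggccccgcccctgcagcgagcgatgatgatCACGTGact
Bid, chr6:120916825-120917074, minus strand: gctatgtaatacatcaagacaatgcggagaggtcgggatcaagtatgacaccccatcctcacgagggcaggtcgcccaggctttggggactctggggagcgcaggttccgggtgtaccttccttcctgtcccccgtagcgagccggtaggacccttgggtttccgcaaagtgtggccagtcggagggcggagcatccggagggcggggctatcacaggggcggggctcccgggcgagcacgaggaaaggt
Bbc3, chr7:16310181-16310430, plus strand: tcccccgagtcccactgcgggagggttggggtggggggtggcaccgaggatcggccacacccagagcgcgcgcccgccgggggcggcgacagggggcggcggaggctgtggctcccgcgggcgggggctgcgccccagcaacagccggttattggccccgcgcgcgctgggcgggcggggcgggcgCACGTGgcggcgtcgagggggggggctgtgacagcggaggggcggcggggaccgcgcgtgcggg

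Totals per library ran from 4165286 to 8872303 counts. Myc transcripts were at 13.3 ± 1.51 CPM (counts scaled to libraries of equal size, mean ± SD, n = 3) in uninduced cells, 31.6 ± 0.913 in no-extra cells and 142 ± 4.36 in 2-extra cells. The 2-extra cells were the highest, as labelled, but the libraries labelled as without an extra copy were also 2.36-fold above uninduced cells (log2 1.24, adjusted p 1.10e-11 by edgeR, called in all 21 alternatives), although neither label gives an extra copy. Directions drawn from no-extra cells rest on that label. All 8 ESC marker genes were above 1 CPM in every group, with sums of 3396 to 3446 CPM in uninduced cells, 3246 to 3436 in 2-extra cells and 3523 to 3585 in no-extra cells. Among other lineages, the sum of 8 fibroblast markers was 77.6 to 84.2 CPM in uninduced cells, 121 to 129 in 2-extra cells and 195 to 220 in no-extra cells. The sum of 6 trophectoderm markers was 37.8 to 41.0, 63.1 to 84.2 and 103 to 115 CPM in the same order. The sum of 6 extraembryonic endoderm markers was 125 to 131, 115 to 120 and 182 to 197 CPM. The sum of 5 neuroectoderm markers was 222 to 232, 203 to 211 and 216 to 227 CPM, lowest in 2-extra cells, and that of 5 primitive streak markers 2.27 to 2.53, 2.35 to 2.46 and 3.10 to 3.40 CPM. Above 1 CPM were 7 of the 8 fibroblast genes, 3 to 4 of the 6 genes of the trophectoderm and endoderm lists, all 5 neuroectoderm genes and 0 to 1 primitive streak genes, and no marker had 0 counts throughout a group. Sums of these lists therefore differed between the groups compared here, that of endoderm mainly through Sparc and that of trophectoderm mainly through Krt8 and Krt18. The part of these lists in the results was not tested. Replicate 1 of 2-extra cells stood apart from the rest of its group: its counts differed from those of replicates 2 and 3 with a chi-square of 2.61 and 2.97 per degree of freedom, against 1.36 to 1.80 for the other pairs within groups. Which of these libraries is unusual is not settled by that. Deviations of log2 CPM from each gene's mean correlated with log2 transcript length at 0.015 in replicate 1 of 2-extra cells. The correlations were -0.14 and -0.18 in replicates 2 and 3, and -0.0027 to 0.15 in the libraries of the other groups. In bulk libraries such as these, a lower level in every cell and fewer cells with the transcript cannot be told apart.

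Scaled to transcript length (CPM per kb, mean of all 9 libraries, with the lowest and highest library), the members fell into 3 tiers. Bax, an effector, was at 401 (359 to 438) and the pro-survival gene Mcl1 at 277 (269 to 283), the 98.4th and 97.6th percentile of all genes tested, and their ranges did not overlap. The middle tier held Bbc3 (PUMA, a BH3-only protein induced by p53) at 48.6 (39.9 to 53.2), the effector Bak1 at 39.5 (34.3 to 44.0), Bid at 36.7 (32.2 to 43.1) and Bcl2l1 (BCL-XL) at 32.8 (29.1 to 36.1). Each neighbour in that order overlapped the next. Bcl2l11 (BIM, a BH3-only protein able to bind all pro-survival members) followed at 19.2 (17.9 to 21.0), below the range of Bcl2l1. The lowest tier held Pmaip1 (NOXA, a BH3-only partner of MCL1) at 4.20 (2.80 to 5.10), Bik at 3.45 (1.41 to 4.50) and Bcl2, the founding gene of the family, at 0.371 (0.288 to 0.491). The ranges of Pmaip1 and Bik overlapped. Bcl2 was at the 1.30th percentile, with 8 to 17 counts per library. Scaling to the longest transcript in place of the mean coding transcript exchanged Bbc3 (24.1) and Bak1 (27.2) and left the rest of the order as it was.

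**Figure D1:**
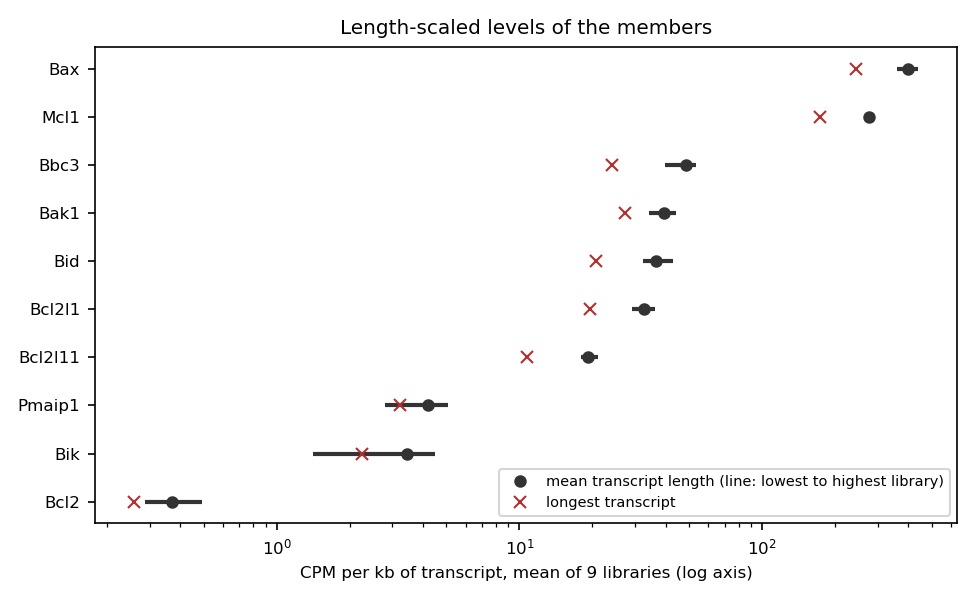
Length-scaled level of each member in CPM per kb of transcript on a log axis. Circles are means over 9 libraries with mean coding transcript length, lines run from the lowest to the highest library, and crosses use the longest transcript. Bax at 401 and Mcl1 at 277 lie to the right of the other members, and Bcl2 at 0.371 lies to the left.

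Each role was thus carried mostly by 1 or 2 transcripts. Mcl1 made up 89.9% of the summed length-scaled level of the pro-survival members in uninduced cells, 88.7% in no-extra cells and 89.3% in 2-extra cells. Bax made up 90.9%, 90.3% and 91.8% of the effector sum in the same order. Among BH3-only members, Bbc3 held 44.3%, 42.4% and 43.1%, and Bid held 31.4%, 31.8% and 34.8%. Over single libraries the share of Mcl1 stayed between 88.3% and 90.1% and that of Bax between 90.0% and 92.2%.

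The mosaic populations, 2-extra and no-extra cells from induced cultures, were compared first, because they had the same drug exposure. Bid was higher and Bik lower in 2-extra cells, while no pro-survival member and no effector was called. That is 2 of 10 members called at an adjusted p below 0.05, 1 higher and 1 lower, beside 16.0% of all genes tested (8.30% higher and 7.70% lower). There was no overlap between groups for 4 members, 3 higher (Bax, Bid and Bbc3) and 1 lower (Bik), beside 30.6% of all genes (15.4% higher and 15.2% lower). DESeq2 called 0 of the 10, with 2 higher at an unadjusted p below 0.05. These counts are close to the background shares for 10 genes. The median log2 change of the members was 0.062, beside -0.012 over all genes tested, and the median absolute change was 0.15 beside 0.13.

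Bid links the death receptors to mitochondria: caspase-8 cleaves it and the fragment engages BAX and BAK. The gene (chr6:120891930-120916853, minus strand, GRCm38) was at 54.9, 58.7 and 57.2 CPM in replicates 1, 2 and 3 in 2-extra cells and at 48.1, 47.7 and 43.8 CPM in no-extra cells. All 3 libraries of 2-extra cells lay above all libraries of no-extra cells. The difference was 0.28 ± 0.070 (log2, SE), or 1.22-fold, with an adjusted p of 0.00489 by the quasi-likelihood test of edgeR. It lost the call under DESeq2, where the adjusted p was 0.0651, and was 0.32 without replicate 1 of 2-extra cells. Bcl2l13, on the other strand, covers 17.7% of the exonic bases of Bid, and no source used here says that the counting used strand. Bcl2l13 itself was at 72.4 CPM in uninduced cells, 72.9 in 2-extra cells and 75.2 in no-extra cells, with no call in any comparison.

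Bik, a BH3-only protein of the endoplasmic reticulum, was at the low end of measurement. Its gene (chr15:83526862-83544634, plus strand) gave 7, 14 and 17 counts in 2-extra cells (1.23, 2.53 and 2.46 CPM) and 23, 35 and 14 counts in no-extra cells (3.91, 3.91 and 3.33 CPM). The groups did not overlap on the CPM scale, and the lowest library was replicate 1 of 2-extra cells, which stood apart from the rest of its group. The log2 change was -0.84 ± 0.295, or 1.79-fold lower, with an adjusted p of 0.0465 by edgeR. Without replicate 1 of 2-extra cells it was -0.57 with an adjusted p of 0.209, and the call was lost in 14 of the 20 alternatives that gave a value. The direction held in all 20.

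Bax, the more abundant effector, lies at chr7:45461697-45466898 (minus strand). It was at 278, 292 and 288 CPM in 2-extra cells and at 253, 275 and 263 CPM in no-extra cells. The groups did not overlap, and the log2 difference of 0.11 ± 0.042 had an adjusted p of 0.0616 by edgeR, outside the threshold. Without replicate 1 of 2-extra cells it passed, at 0.0107, as it did without replicate 2 of no-extra cells, at 0.0442. Bak1, the other effector (chr17:27019810-27029009, minus strand), was at 63.0 ± 4.52 CPM in 2-extra cells and 69.7 ± 3.48 in no-extra cells, with a log2 value of -0.14 ± 0.069 and an adjusted p of 0.171. Ggnbp1, on the other strand, covers 18.2% of the exonic bases of Bak1 and averaged 13.8 CPM. As for Bid, whether the counting used strand is not known, and the part of Ggnbp1 in the Bak1 counts was not tested. The effectors thus had values of opposite sign here, neither of them called.

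The pro-survival transcripts gave no call between the mosaic populations. Mcl1, a short-lived protein needed in early embryos (chr3:95658788-95663176, plus strand), was at 593, 582 and 600 CPM in 2-extra cells and at 584, 604 and 587 CPM in no-extra cells. With counts of 2467 to 5406 per library, its log2 difference of -0.0013 had a 95% interval of -0.071 to 0.069. Bcl2l1 (chr2:152780668-152831728, minus strand) was at 50.5 ± 1.00 and 53.7 ± 2.26 CPM, with a log2 difference of -0.08 and an interval of -0.22 to 0.060. Bcl2 (chr1:106538178-106714274, minus strand) was at 1.89 ± 0.522 and 1.79 ± 0.516 CPM. Its interval of -0.56 to 0.91 is wide at 8 to 17 counts per library, and a change within it was not detectable at this depth.

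Of the other BH3-only members, Bbc3 (chr7:16308393-16318205, plus strand) was at 45.1, 47.2 and 48.0 CPM in 2-extra cells and at 44.0, 43.7 and 36.0 CPM in no-extra cells. The groups did not overlap, with the widest gap to replicate 3 of no-extra cells, and the log2 difference of 0.16 ± 0.079 had an adjusted p of 0.178. Bcl2l11 (chr2:128126038-128162547, plus strand) was at 54.0 ± 4.46 and 53.7 ± 2.75 CPM, with a log2 difference of 0.0095 and an interval of -0.14 to 0.15. Pmaip1 (chr18:66458533-66465565, plus strand) was at 10.3 ± 0.432 and 8.96 ± 1.18 CPM, with a log2 difference of 0.19 ± 0.159 and an adjusted p of 0.459.

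**Figure D2:**
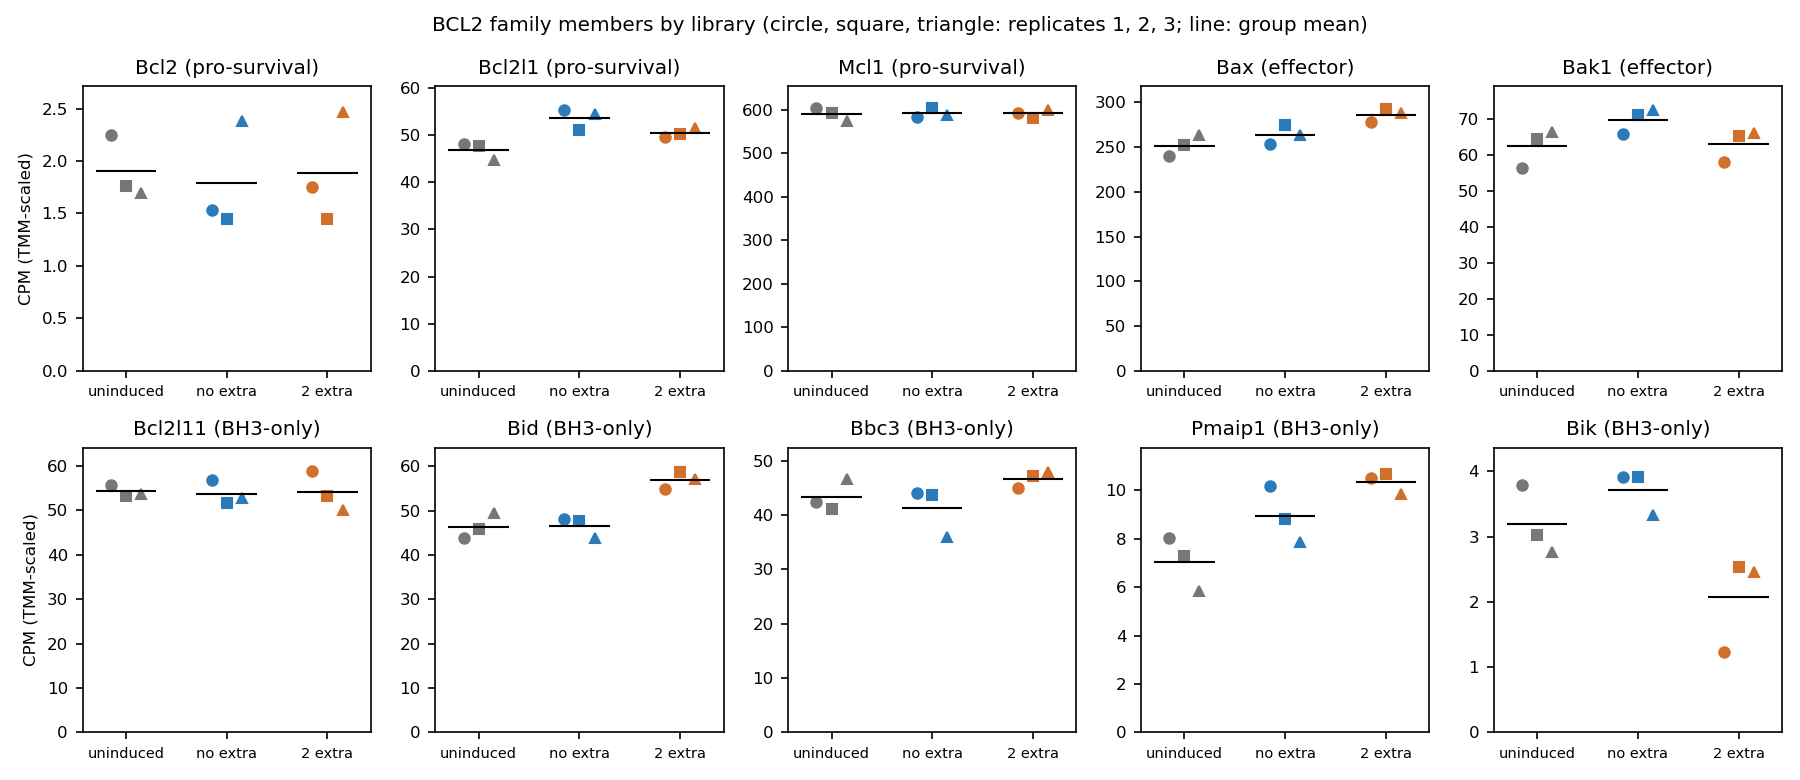
CPM of each member in every library, with an axis from 0 in each panel. Circles, squares and triangles are replicates 1, 2 and 3, and the line is the group mean. Bid at 54.9 to 58.7 CPM in 2-extra cells lies above both other groups, Bik lies below them, and Mcl1 stays within 575 to 605 CPM in all 9 libraries.

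Against the uninduced cells, which differed in drug exposure as well as in Myc copies, 3 members were higher in 2-extra cells and none was lower. They were the effector Bax and the BH3-only genes Bid and Pmaip1. The count of 3 of 10 stands beside 25.0% of all genes tested, with 12.8% higher and 12.1% lower. There was no overlap between groups for 5 members, 4 higher (Bcl2l1, Bax, Bid and Pmaip1) and 1 lower (Bik), beside 38.5% of all genes (19.1% higher and 19.4% lower). The median log2 change of the members was 0.063, beside -0.014 over all genes, and the median absolute change of 0.11 was below the 0.16 of all genes. This comparison shares the libraries of 2-extra cells with the preceding one.

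Bax was at 239, 252 and 263 CPM in uninduced cells, against 278 to 292 in 2-extra cells. All 3 libraries of the latter were above all uninduced ones. The log2 change was 0.19 ± 0.042, or 1.14-fold, with an adjusted p of 0.00103 by edgeR. The call was kept under all 21 alternatives, in which the highest adjusted p was 0.0309. GENCODE lists Gm45808 on the same strand, which covers 12.2% of the exonic bases of Bax and matches 56.6% of a Bax transcript at 100% identity. Gm45808 has no row of its own in the deposited counts, and the labels do not say how reads they share were counted.

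Bid was at 43.9, 45.7 and 49.6 CPM in uninduced cells, below each of the 3 libraries of 2-extra cells. Its log2 change was 0.30 ± 0.069, or 1.23-fold, with an adjusted p of 0.00139 by edgeR, and all 21 alternatives kept the call. Pmaip1, whose product frees BAX and BAK by binding MCL1, was at 8.01, 7.31 and 5.85 CPM in uninduced cells and at 10.5, 10.7 and 9.85 CPM in 2-extra cells. No library of either group overlapped the other, at 33 to 79 counts per library over all groups. The log2 change was 0.54 ± 0.161, or 1.45-fold, with an adjusted p of 0.0126 by edgeR. The call was lost under DESeq2, at 0.140, and without uninduced replicate 3, where the log2 change was 0.43 with an adjusted p of 0.0756.

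Bik was at 3.80, 3.02 and 2.77 CPM in uninduced cells (27, 24 and 18 counts), above all libraries of 2-extra cells. Its log2 value of -0.61 ± 0.297 had an adjusted p of 0.132. Bcl2l1 was at 48.2, 47.6 and 44.8 CPM in uninduced cells and at 49.6, 50.2 and 51.6 CPM in 2-extra cells, without overlap, and its log2 value of 0.11 ± 0.068 had an adjusted p of 0.270. Mcl1 had a log2 value of 0.0029 with an interval of -0.067 to 0.073. Bcl2, Bak1, Bcl2l11 and Bbc3 had log2 values from -0.0079 (Bcl2l11) to 0.11 (Bbc3), and none was called.

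No-extra cells were also compared with uninduced cells, which sets cells labelled as without extra Myc, inside and outside a mosaic, side by side. The groups again differed in the drug, and also in Myc transcripts, which were 2.36-fold higher in no-extra cells. None of the 10 members was called by edgeR, 0 higher and 0 lower, beside 13.5% of all genes tested (7.10% higher and 6.39% lower). At an unadjusted p below 0.05 there were 3 members by edgeR, all higher (Bcl2l1, Bak1 and Pmaip1), 3 by limma-voom and 0 by DESeq2, and neither of these tools called a member. Groups were free of overlap for 1 member, Bcl2l1, beside 31.5% of all genes (16.1% higher and 15.4% lower). The members' median log2 change was 0.044, beside 0.0022 over all genes. Bcl2l1, which holds BAX and BAK in check beside Mcl1, was at 55.4, 51.1 and 54.5 CPM in no-extra cells. All 3 libraries lay above the uninduced range of 44.8 to 48.2. The log2 value was 0.19 ± 0.067 with an adjusted p of 0.0641, and with library sizes alone for scaling it was 0.20 with 0.0425. Bak1 was at 65.8, 71.0 and 72.4 CPM against 56.4, 64.4 and 66.2 CPM, which overlap, with an adjusted p of 0.116. Pmaip1 was at 10.2, 8.82 and 7.86 CPM, between the other groups by its mean, with a log2 value of 0.35 ± 0.164 and an adjusted p of 0.175.

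**Figure D3:**
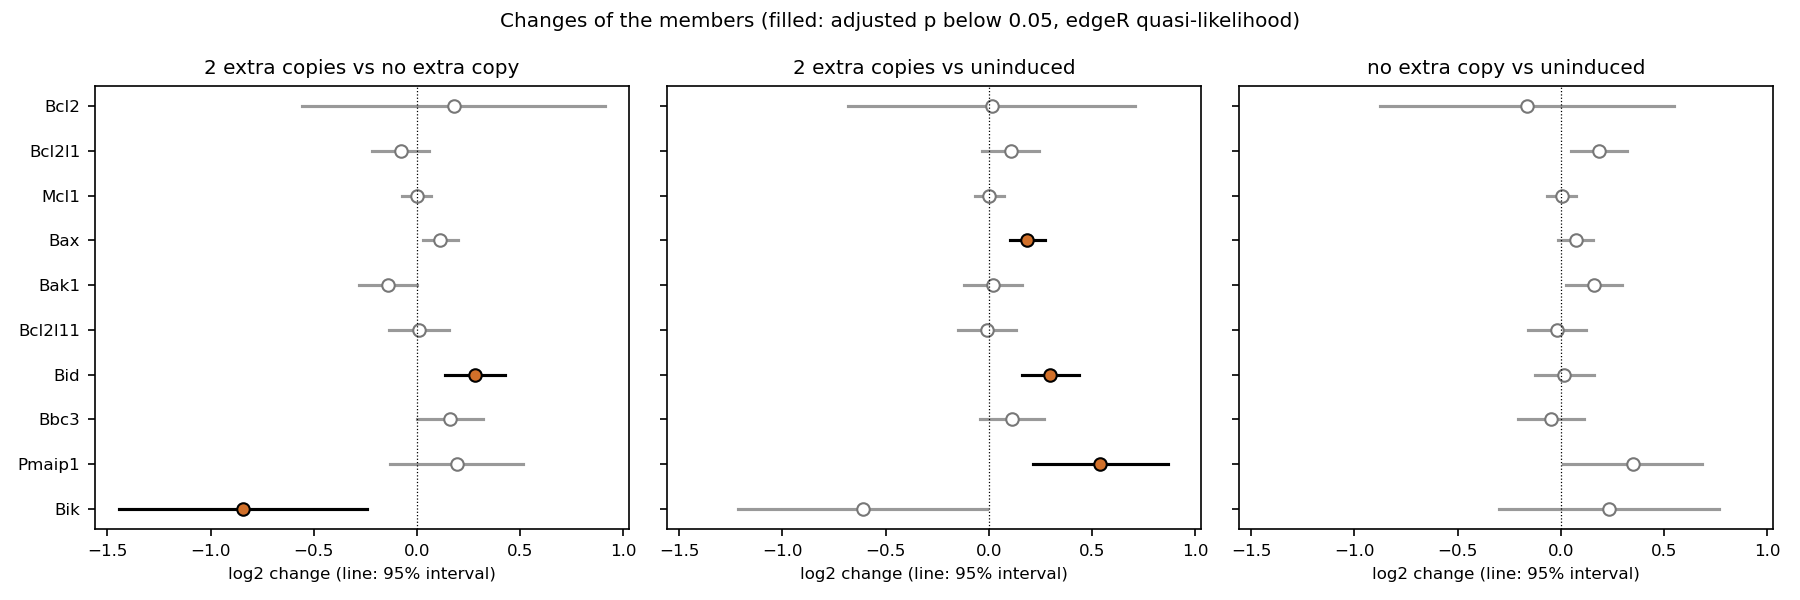
Log2 change of each member in the 3 comparisons, with 95% intervals. Filled points have an adjusted p below 0.05 (edgeR quasi-likelihood): Bid and Bik in the first panel, Bax, Bid and Pmaip1 in the second, and none in the third. The intervals of Mcl1 are the narrowest and those of Bcl2 and Bik the widest.

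The balance between roles was described by ratios of summed length-scaled transcript levels, with no test, since the ratio is a score over the members. The pro-survival sum was near the same level in all groups, at 307 ± 8.21 CPM per kb in uninduced cells, 312 ± 3.30 in no-extra cells and 310 ± 4.69 in 2-extra cells. The effector sum was 415 ± 20.7, 438 ± 17.8 and 467 ± 13.0 CPM per kb in the same order. The BH3-only sum was 109 ± 4.22, 108 ± 8.10 and 120 ± 2.36 CPM per kb. The pro-survival sum therefore varied least between groups, and both opposing sums had their highest mean in 2-extra cells.

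The ratio of pro-survival to effector transcripts was 0.685, 0.639 and 0.667 in replicates 1, 2 and 3 in 2-extra cells. It was 0.738, 0.694 and 0.708 in no-extra cells and 0.800, 0.739 and 0.686 in uninduced cells. The 2-extra cells were thus below both other groups in every library, though their highest value and the lowest uninduced one differed only in the third decimal. The ratio of pro-survival to BH3-only transcripts was 2.63, 2.49 and 2.61 in 2-extra cells, 2.72, 2.86 and 3.16 in no-extra cells, and 2.93, 2.93 and 2.63 in uninduced cells. Again 2-extra cells lay below no-extra cells, and met the lowest uninduced library within rounding. In log2, the difference between the mosaic populations was -0.10 for effectors and -0.17 for BH3-only genes, the latter -0.11 without replicate 3 of no-extra cells and -0.097 with the median of members. Because Mcl1 and Bax dominate their sums, the ratio is mainly that of these genes: with Mcl1 left out, the log2 difference from uninduced cells changed from -0.16 to -0.066 for effectors and from -0.13 to -0.042 for BH3-only genes, and with the median of members in place of sums it was 0.0049 and 0.11, of the other sign. Levels also followed transcript length differently by library. Per doubling of length, log2 levels changed by 0.0044, -0.045 and -0.055 in replicates 1, 2 and 3 of 2-extra cells. The values were -0.00076, 0.0069 and 0.017 in no-extra cells and 0.042, 0.016 and 0.014 in uninduced cells. Mean coding transcript length is 2138 bases for Mcl1 and 667 for Bax. The ratios were not corrected for this trend, and its part in them was not tested.

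**Figure D4:**
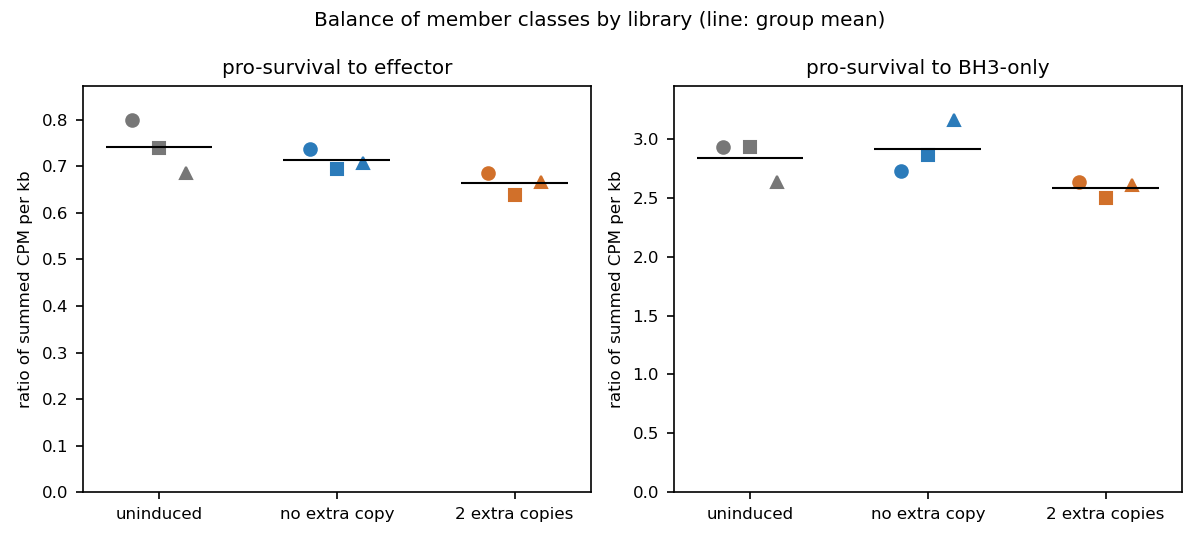
Ratio of summed CPM per kb of pro-survival members to effectors (left) and to BH3-only members (right) in each library, with axes from 0. Circles, squares and triangles are replicates 1, 2 and 3, and lines are group means. In 2-extra cells the means are 0.664 and 2.58, against 0.713 and 2.91 in no-extra cells and 0.742 and 2.83 in uninduced cells.

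Of 15 further genes of the family, 10 could be tested. None was called higher in any comparison. In 2-extra cells 1 was lower than in no-extra cells and 4 were lower than in uninduced cells, and in no-extra cells 4 were lower than in uninduced cells, beside 7.70%, 12.1% and 6.39% of all genes called lower. DESeq2 called 0, 4 and 2 of them lower and limma-voom 0, 4 and 3. The medians were -0.070, -0.24 and -0.057 (log2). At an unadjusted p below 0.05, edgeR, limma-voom and DESeq2 likewise gave 0 of these genes higher in each comparison. Bnip3, a mitochondrial receptor for autophagy known as a target of hypoxia signalling, was at 54.3 ± 9.16 CPM in uninduced cells, 17.1 ± 1.41 in 2-extra cells and 19.9 ± 1.28 in no-extra cells. It was lower than in uninduced cells in both populations, by log2 changes of -1.67 and -1.46 with adjusted p of 1.52e-09 and 1.01e-08 by edgeR.

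Hrk, a BH3-only gene best known in neurons, was at 11.8 ± 1.60 CPM in uninduced cells, 7.19 ± 0.676 in 2-extra cells and 6.76 ± 0.837 in no-extra cells. Its log2 changes against uninduced cells were -0.80 in no-extra cells and -0.70 in 2-extra cells, with adjusted p of 0.000556 and 0.00117 by edgeR. Both calls were kept in all 21 alternatives. Bmf, a BH3-only protein tied to the cytoskeleton, was at 30.1 ± 3.57 CPM in uninduced cells, 24.7 ± 0.552 in no-extra cells and 19.9 ± 0.875 in 2-extra cells. It was lower in 2-extra cells than in uninduced cells (log2 -0.59, adjusted p 3.61e-05 by edgeR). The difference of Bmf between the mosaic populations, -0.31 with an adjusted p of 0.0405, lost its call in 11 of 21 alternatives, and that between no-extra and uninduced cells, -0.28 with 0.0480, in 13. Bnip3l, a relative of Bnip3, was lower than in uninduced cells in both populations by edgeR. In 2-extra cells the log2 change was -0.28 with an adjusted p of 0.000194, a call kept in all 21 alternatives. In no-extra cells it was -0.19 with 0.0166, a call lost in 4 of 21 alternatives. The BH3-only genes did not move as 1 group: Bad, which like Hrk and Bmf is no member, was at 11.4, 12.1 and 12.4 CPM in uninduced, 2-extra and no-extra cells and was not called.

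Of 10 genes for partners and turnover of family proteins, 9 were tested, and their medians in the same order of comparisons were 0.020, 0.080 and -0.031. Their calls stand beside 8.30%, 12.8% and 7.10% of all genes called higher, and 7.70%, 12.1% and 6.39% called lower. Between the mosaic populations 1 was higher: Vdac2, a porin that holds BAK at the mitochondrion (0.11, adjusted p 0.0462 by edgeR, lost in 12 of 21 alternatives). Against uninduced cells 2 were higher in 2-extra cells: Tpt1, which encodes a protein that stabilises MCL1, by 0.13 with an adjusted p of 0.00121 by edgeR, and Vdac1 by 0.099 with 0.0459, which lost its call in 16 of 21 alternatives. No gene of this list was called lower there by edgeR or DESeq2, but limma-voom called 2 lower, and DESeq2 had 2 lower at an unadjusted p below 0.05. The lowest log2 values of the list were those of Huwe1, a ubiquitin ligase for MCL1, at -0.45 (adjusted p 0.188 by edgeR), and Usp9x, a deubiquitinase of MCL1, at -0.37 (0.146), named after their values were seen. Both varied widely among 2-extra libraries. Huwe1 was at 475 ± 142 CPM there and 646 ± 29.7 in uninduced cells, and Usp9x at 304 ± 71.7 and 393 ± 21.8. In no-extra cells against uninduced cells 0 were called by edgeR, DESeq2 and limma-voom, with 2, 1 and 3 higher at an unadjusted p below 0.05.

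Each of the 12 genes described that act after the mitochondrion was tested. In 2-extra cells 4 were higher and 3 lower than in no-extra cells, 5 were higher and 3 lower than in uninduced cells, and in no-extra cells 1 was higher and 1 lower than in uninduced cells, beside 16.0%, 25.0% and 13.5% of all genes called. DESeq2 called 1 higher and 1 lower between the mosaic populations, 5 and 2 in 2-extra cells against uninduced cells, and 0 in the last comparison. The medians were -0.027, 0.12 and 0.054. Htra2, a mitochondrial protease that counters inhibitors of apoptosis once released, was at 64.2 ± 5.42 CPM in 2-extra cells, 50.6 ± 2.21 in no-extra cells and 44.9 ± 1.30 in uninduced cells. Its log2 changes were 0.35 and 0.52 with adjusted p of 0.000500 and 9.08e-07 by edgeR. Cycs, which encodes cytochrome c, was at 71.1 ± 1.93, 57.9 ± 6.71 and 57.0 ± 5.67 CPM, with a log2 difference between the mosaic populations of 0.29 and an adjusted p of 0.00719 by edgeR. The genes called higher included proteins that also serve the respiratory chain, such as cytochrome c and Aifm1, which was higher than in uninduced cells by 0.29 (adjusted p 0.000347 by edgeR).

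Lower in 2-extra cells were Xiap, the inhibitor of caspases that Htra2 and Diablo antagonise, and Casp9, the initiator caspase of the apoptosome. Xiap was at 51.2 ± 3.73 CPM, against 63.5 ± 1.76 in no-extra cells and 64.9 ± 0.175 in uninduced cells, with log2 changes of -0.31 and -0.35 and adjusted p of 0.00111 and 0.000141 by edgeR. Casp9 was at 23.1 ± 1.66 CPM, against 29.8 ± 2.75 and 31.0 ± 2.09, with log2 changes of -0.37 and -0.43 and adjusted p of 0.00746 and 0.00100. In no-extra cells against uninduced cells, Endog, a mitochondrial nuclease, was higher by 0.81 on the log2 scale (adjusted p 0.00430 by edgeR). Birc2, another inhibitor of apoptosis, was lower there with a log2 change of -0.30 (adjusted p 0.00496 by edgeR). Birc2 was also lower in 2-extra cells than in uninduced cells (log2 -0.28, adjusted p 0.00558 by edgeR). It was not called between the mosaic populations. DESeq2 did not call Cycs and Casp9 between the mosaic populations, nor Endog in no-extra cells, nor Birc2 in either population against uninduced cells. Cycs and Casp9 also lost the call without replicate 2 of no-extra cells, as Casp9 did without replicate 3 of 2-extra cells.

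**Figure D5:**
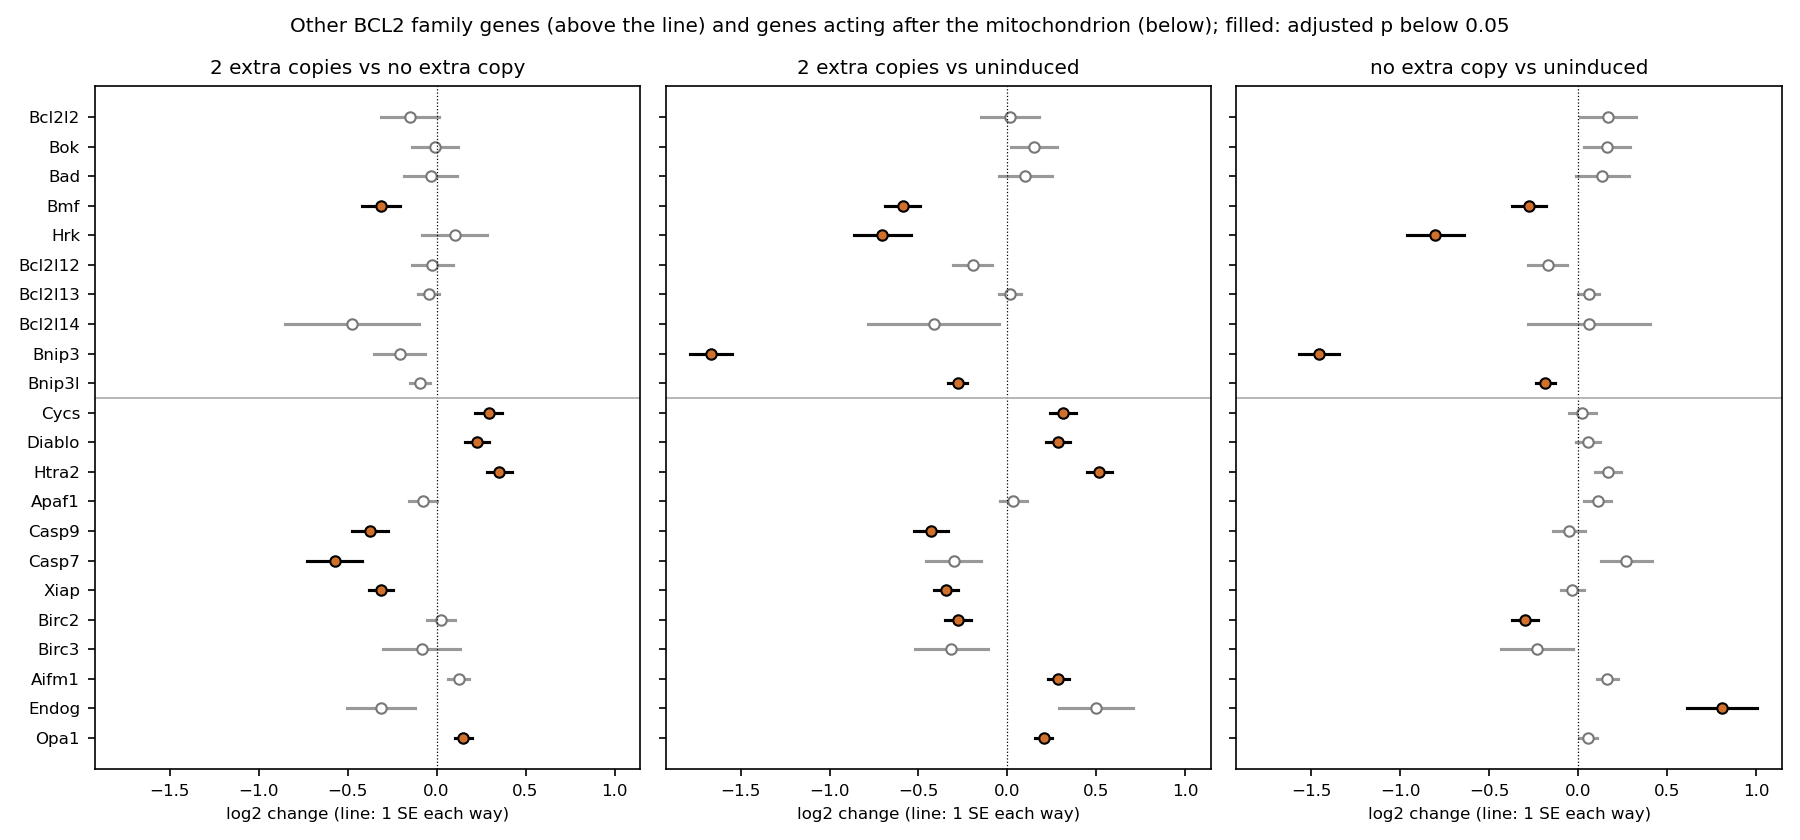
Log2 change, with a line of 1 SE each way, of the 10 tested further family genes (above the horizontal line) and the 12 genes acting after the mitochondrion (below it) in the 3 comparisons. Filled points have an adjusted p below 0.05. Every filled point above the line is to the left of 0, with Bnip3 at -1.67 and -1.46 farthest, while filled points below it lie on both sides of it.

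Among 10 transcription factors known to act on family genes, 2 were higher and 4 lower in 2-extra cells in both comparisons, and 1 was higher and 4 were lower in no-extra cells than in uninduced cells. Of all genes tested, 8.30%, 12.8% and 7.10% were called higher in these comparisons, and 7.70%, 12.1% and 6.39% lower. Between the mosaic populations DESeq2 called 1 higher and 1 lower. The medians were 0.051, -0.10 and -0.048. The factor higher in no-extra cells was Myc itself, which was also 1 of the 2 higher in 2-extra cells. The other of these, Trp73 (p73, a relative of p53 able to induce Bbc3 and Pmaip1), was at 21.3 ± 1.70 CPM in 2-extra cells, 16.8 ± 3.24 in no-extra cells and 13.7 ± 1.12 in uninduced cells. Against uninduced cells the log2 change was 0.63 with an adjusted p of 0.000183 by edgeR, and between the mosaic populations it was 0.38 with 0.0304, which lost its call in 6 of 21 alternatives. Ddit3 (CHOP, a stress factor that can induce Bcl2l11 and Bbc3) was at 26.7 ± 1.82 CPM in uninduced cells, 13.0 ± 1.34 in no-extra cells and 9.37 ± 0.752 in 2-extra cells. The log2 changes against uninduced cells were -1.51 in 2-extra cells (adjusted p 1.96e-11 by edgeR) and -1.05 in no-extra cells (1.41e-08). Between the mosaic populations the change of Ddit3 was -0.46 with an adjusted p of 0.0221 by edgeR, a call lost in 4 of 21 alternatives. Mycn, the paralogue that predominates in pluripotent cells, was at 188 ± 1.97 CPM in uninduced cells, 153 ± 2.89 in no-extra cells and 126 ± 1.30 in 2-extra cells, and was called lower in all 3 comparisons. Atf4, which acts before Ddit3, was lower than in uninduced cells in both populations and was not called between them. The log2 changes were -0.28 in 2-extra cells (adjusted p 1.85e-05 by edgeR) and -0.35 in no-extra cells (8.47e-07).

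The death receptor arm, which reaches the family through cleavage of Bid, had 7 of 8 genes tested. Only Tnfrsf1a, the receptor for tumour necrosis factor, was called in any comparison by edgeR. It was at 6.57 ± 0.863 CPM in 2-extra cells, 11.0 ± 0.512 in no-extra cells and 11.2 ± 1.10 in uninduced cells, with a log2 change of -0.77 against both and adjusted p of 0.00101 and 0.000391. The medians of the arm were -0.26, -0.087 and 0.17. Over all genes tested, 16.0%, 25.0% and 13.5% were called in these comparisons. In no-extra cells against uninduced cells no gene of the arm was called by edgeR, DESeq2 or limma-voom, with 0, 0 and 1 at an unadjusted p below 0.05. Bid and the receptor thus had changes of opposite direction in 2-extra cells, Bid higher and Tnfrsf1a lower than in both other groups.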

How the data were processed

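RNA sequencing libraries (75 bp single-end reads per the labels) from 9 sorted ESC samples were analysed. The authors deposited expected counts per gene made with RSEM 1.17 on GRCm38, annotation release 84, as given per the file headers and in the submitters' processing notes. Those notes list Picard, cutadapt and limma with no role stated. The aligner and the strand setting are not given in the sources used here.

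Expected counts were rounded. Symbols, coordinates and transcript lengths came from GENCODE M21 (GRCm38), in which 35432 of 35771 identifiers had a symbol, and promoter windows from RefSeq (GRCm38.p6). Genes were filtered with filterByExpr, scaled by TMM and tested with the robust quasi-likelihood F-test of edgeR 4.0.16 in R 4.3.3, with 1 coefficient per group over all 9 libraries, and Benjamini-Hochberg adjustment over 13424 genes. A call is an adjusted p below 0.05. Every adjusted p in the text is from this test unless another tool is named. SEs and 95% intervals come from the F statistics. Levels are TMM-scaled CPM, mean ± SD over 3 libraries, and levels compared between genes are per kb of mean coding transcript length. The common biological coefficient of variation was 0.0394. Near copies of members were searched with minimap2 2.31-r1302.

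All 10 members were named. From each pathway list, up to 2 called genes per direction and comparison with the smallest p were named. 1 gene of the list acting after the mitochondrion is not reported here, and that list's counts and medians leave it out. The members and lists were chosen with earlier results of these data known. Alternatives were DESeq2 1.42.0, limma-voom (limma 3.58.1), other scalings, filters and fits, and leaving out each library. The code was tested on simulated data. No batch is named in the labels.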

Additional observations from a re-analysis of the deposited data

How the results depend on the processing

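Of the 30 member results (10 genes in 3 comparisons), 25 kept their side of the threshold under every alternative that gave a value, and of 626 values 17 lost a call, 5 gained one and 0 reversed a called direction. A further 47 values, in 11 results, had the other sign with no call on either side. The calls of Bax and Bid against uninduced cells were kept throughout. Of the 5 gained calls, 4 were of Bax between the mosaic populations: with RLE factors (adjusted p 0.0447), with the replicate block (0.0354), without replicate 1 of 2-extra cells (0.0107) and without replicate 2 of no-extra cells (0.0442). Except where named, the cause of a change was not tested.

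In 2-extra cells against no-extra cells, 2148 genes were called, and 940 with DESeq2, which called 0 members (2 at an unadjusted p below 0.05, both higher). The members called were 1 with no filter on low counts, with only the 2 groups compared, without the robust option and with the replicate block plus length offset, each time without Bik. Leaving out each library gave 1397 to 2564 genes and 1 to 2 members, and without replicate 1 of 2-extra cells the 2 were Bax and Bid. Against uninduced cells, 2-extra cells gave 3350 genes, 1635 with DESeq2, and 2453 to 3719 on leaving out each library, with 2 to 3 members. No-extra cells gave 1811 genes, 688 with DESeq2, and 1177 to 2201 on leaving out each library. The lowest counts of the comparisons with no-extra cells, 1397 and 1177, were without replicate 2 of that group. With library sizes alone 1 member, Bcl2l1, was called there. Scaling by library size alone moved the share of higher calls between the mosaic populations from 51.9% to 36.3%, and DESeq2 to 65.1%.

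The log2 difference of the pro-survival to effector balance between the mosaic populations was -0.10, and -0.18 without Mcl1. Against uninduced cells it was -0.16 in 2-extra cells, -0.066 without Mcl1 and 0.0049 with the median of members. In no-extra cells it was -0.054, 0.11 without Mcl1 and 0.079 with the median, and leaving out each library gave -0.109 to 0.0011, the last without uninduced replicate 1. The pro-survival to BH3-only balance against uninduced cells was -0.13 in 2-extra cells, -0.042 without Mcl1 and 0.11 with the median. In no-extra cells it was 0.039, 0.21 without Mcl1 and 0.21 with the median. Leaving out each library gave -0.020 to 0.087, with -0.012 without uninduced replicate 3 and -0.020 without replicate 3 of no-extra cells.

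No pairing of libraries by replicate number was seen: deviations of same-numbered libraries correlated at -0.081 to 0.081, 0 of 9 pairs were above 0.1, and the best match had the same number in 3 of 18 cases. Such correlations cannot exclude a shared culture or day. With the number as a replicate block, 2233, 3440 and 1933 genes and 2, 3 and 0 members were called, the 2 being Bax and Bid. Depth limits Bcl2, Bik and Pmaip1, at 8 to 17, 7 to 35 and 33 to 79 counts per library.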

Other observations

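The genes whose pattern over the 9 libraries was most like that of Bid (root mean square distance of centred log2 CPM, among 9483 genes averaging 10 CPM or more) were Nutf2-ps1 at 0.043, Tmem248 at 0.048 and Ppa1 at 0.050, where the median gene was at 0.18. Ppa1, the cytosolic inorganic pyrophosphatase, had means of 168 CPM in uninduced cells, 174 in no-extra cells and 211 in 2-extra cells. For Bik the nearest were Lmo7 at 0.14, Cntn2 at 0.15 and Slc9a3r1 at 0.15, where the median was 0.36. The distances of Bik are larger, at 7 to 35 counts per library. Lmo7, a protein of cell junctions, had means of 18.1 CPM in uninduced cells, 19.9 in no-extra cells and 12.5 in 2-extra cells. These are descriptions over libraries that share their groups and depths.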
